A study of Mus musculus with 12 samples.

Results

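The 10 genes described here are known for work in germ cells and are 10 of the 45801 genes listed in either table of the series. They are Dazl, Ddx4, Stk31, Tex101, Mael, Tdrd1, Fkbp6, Sycp1, Sycp3 and Tex15. They were taken by gene symbol, and Tex15 and Fkbp6 were picked on their opposite changes in the embryonic stem (ES) cell comparison, so the ES cell values of these 2 genes are given as a description only. The ES cell table of 13009 genes listed 8 of the 10, without Tex101 and Tdrd1, and the blastocyst table of 45706 genes listed all 10. The series measured RNA by sequencing in mouse blastocysts, the embryos that precede implantation, and in ES cells, which are pluripotent lines derived from such embryos. Each material had 3 samples of genotype Dis3L KO and 3 of genotype Dis3L WT. Dis3l encodes the catalytic subunit of the cytoplasmic exosome, which degrades RNA from its 3′ end. Per the labels' protocols, all embryos came from females stimulated with PMSG and hCG, each blastocyst library came from a single embryo, and the ES cells grew on inactivated mouse embryonic fibroblasts with LIF. The knockout allele, the strain, and whether the 3 ES cell samples of a genotype are separate lines are not given in the sources used here, so the p-values measure only the spread between these samples, which may be technical.

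Germline genes act in primordial germ cells, in meiosis and in sperm and egg formation, and in the early embryo and in somatic cells most of them are held silent. The silencing is known to involve DNA methylation of CpG-rich promoters and a variant Polycomb complex whose MGA and MAX subunits recognise the E-box CACGTG and whose E2F6 subunit recognises the letters TCCCGC. In ES cells and blastocysts some germline genes are known to be transcribed although no germ cell is present. Among the 10 genes, Dazl binds germ cell mRNAs and controls their translation, Ddx4 is the vasa RNA helicase of germ granules, Stk31 has a Tudor and a kinase-like domain, and Tex101 is a surface protein of germ cells. Mael, Tdrd1 and Fkbp6 serve the piRNA pathway, in which small RNAs silence transposons. Sycp1 and Sycp3 build the transverse filaments and the lateral elements of the synaptonemal complex, which holds paired chromosomes together in meiosis, and Tex15 is needed for meiotic recombination and for piRNA-guided transposon silencing.

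RefSeq promoter windows (GRCm38.p6, 250 bases before to 50 after the start of transcription) were found for 9 of the 10 genes, all but Tex15, and 4 are printed because they show the range of the set. Fkbp6 and Sycp3 hold 2 copies of CACGTG each, Mael holds both letter strings, and Dazl holds neither. Capitals mark CACGTG, which reads the same on both strands, and TCCCGC or its reverse complement GCGGGA. Each is given 5′ to 3′ on the strand of its gene: Fkbp6 at chr5:135349995-135350294 (minus strand), Sycp3 at chr10:88459337-88459636 (plus strand), Mael at chr1:166238695-166238994 (minus strand) and Dazl at chr17:50293571-50293870 (minus strand).
Fkbp6: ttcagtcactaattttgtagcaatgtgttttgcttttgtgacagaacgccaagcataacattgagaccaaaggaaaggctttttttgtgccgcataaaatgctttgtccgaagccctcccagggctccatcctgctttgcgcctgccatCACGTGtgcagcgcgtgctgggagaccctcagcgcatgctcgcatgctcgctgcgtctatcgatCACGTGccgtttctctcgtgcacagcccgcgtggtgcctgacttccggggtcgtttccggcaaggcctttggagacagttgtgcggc
Sycp3: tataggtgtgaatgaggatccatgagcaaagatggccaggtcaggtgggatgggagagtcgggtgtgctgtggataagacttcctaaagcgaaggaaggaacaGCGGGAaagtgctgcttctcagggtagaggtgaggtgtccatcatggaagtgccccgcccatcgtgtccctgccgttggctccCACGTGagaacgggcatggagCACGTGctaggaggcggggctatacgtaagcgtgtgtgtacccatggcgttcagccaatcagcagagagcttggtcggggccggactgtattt
Mael: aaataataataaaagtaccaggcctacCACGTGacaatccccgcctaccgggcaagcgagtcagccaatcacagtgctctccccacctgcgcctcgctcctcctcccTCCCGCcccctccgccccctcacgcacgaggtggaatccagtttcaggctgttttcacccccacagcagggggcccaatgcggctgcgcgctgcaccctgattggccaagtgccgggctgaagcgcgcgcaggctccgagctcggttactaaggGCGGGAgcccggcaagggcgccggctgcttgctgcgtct
Dazl: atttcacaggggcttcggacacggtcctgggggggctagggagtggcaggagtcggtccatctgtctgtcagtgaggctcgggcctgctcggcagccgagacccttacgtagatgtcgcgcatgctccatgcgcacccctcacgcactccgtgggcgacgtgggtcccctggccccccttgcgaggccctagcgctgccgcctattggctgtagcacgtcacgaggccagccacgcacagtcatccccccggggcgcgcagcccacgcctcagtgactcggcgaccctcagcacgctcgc

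CACGTG stood in the first window of 7 of the 9 genes, all but Dazl and Tex101, and in 7.15% of the 32851 mouse windows of the same length. At least 2 copies stood in Fkbp6 and Sycp3, and in 0.594% of all windows. TCCCGC, searched on both strands, stood in 4 of the 9 windows (Ddx4, Mael, Sycp1 and Sycp3) and in 20.0% of all windows, and both strings together stood in the same 4 genes and in 1.99% of all windows. The 2 strings do not overlap one another in the printed windows. The 9 windows were rich in CpG, with an observed over expected CpG ratio of 0.666 to 0.978 (median 0.795) against a median of 0.384 over all windows, and their GC content was 55.0% to 72.0% against a median of 52.7%. High CpG ratios and TCCCGC were not particular to these genes, as the gene lists given with the repressors below show. A match is a description of these letters and not a binding site.

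Neither table holds a value per sample, but each mean of the authors is a sum of whole reads, and the reads behind it were recovered for each count column. The ES cell means came from 4 count columns, although the labels list 6 ES cell samples, and the blastocyst means came from 6. A column belongs to the positive side when genes with a positive deposited log2 fold change are higher in it, and to the negative side otherwise. Which side is the knockout is not stated, columns were not assigned to genotypes, and a sign need not mean the same genotype in both tables. ES cell columns held 631863 to 1036406 reads in 12137 solved genes. Blastocyst relative depths (size factors) ran from 0.695 to 1.62. Reads are divided by the size factor of the column where they are called normalised. Dis3l, the targeted gene, had 14 and 8 reads in the positive-side ES cell columns, against 39 and 39 in the negative-side ones. In blastocysts its reads were 26, 8 and 0 against 10, 4 and 8. The labelled materials were set beside markers. All 12 pluripotency markers were in the ES cell table with a median mean of 519 normalised reads, and all had reads in blastocysts, with a median mean of 241. All 10 trophectoderm markers had reads in blastocysts, with a median mean of 991. The ES cell table listed 7 of the 10, and the 3 tested there had a median mean of 77.9.

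In ES cells the 6 genes that were not picked on this comparison had 3 positive and 3 negative log2 fold changes in the authors' deposited table. Tex15 was higher in both positive-side columns and Fkbp6 in both negative-side columns, by several fold each, and these were the 2 genes picked for it. None of the 6 others passed an adjusted p of 0.05 in the authors' deposited table, where 0.261% of the 10739 tested genes passed. Ddx4 alone of these 6 had an unadjusted p under 0.05, a level that 5.62% of tested genes reached. Their median deposited log2 fold change was 0.04, with a range from −0.49 to 0.66, beside a median of −0.00011 over all tested genes.

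**Figure D1:**
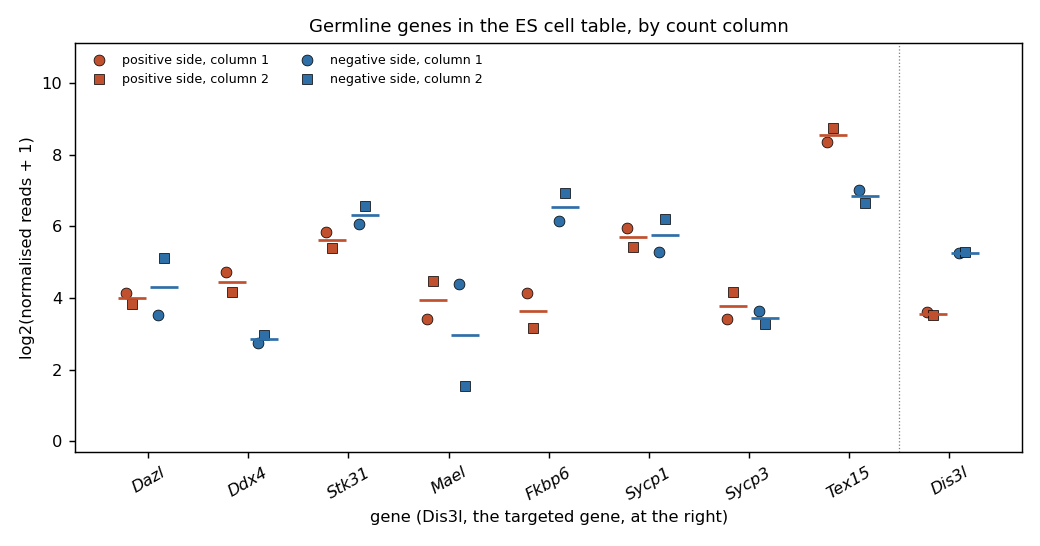
Normalised reads of the 8 listed germline genes and of Dis3l in the 4 ES cell count columns, as log2 of reads plus 1 on the vertical axis; circles and squares are the 2 columns of a side and bars are the mean of the log2 values of a side. Tex15 is the highest gene on the positive side (327 and 432 normalised reads), Fkbp6 runs the other way (16.8 and 7.90 against 70.4 and 122), and the sides of Dazl, Mael, Sycp1 and Sycp3 overlap.

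Tex15 (ENSMUSG00000009628, chromosome 8 from 33516738 to 33585582, plus strand, GRCm38) had 409 and 328 reads in the positive-side columns, against 136 and 103 in the others, or 327, 432, 129 and 99.5 normalised reads. Both positive-side columns were above both negative-side columns. The means were 379 ± 74.5 against 114 ± 21.1 normalised reads (SD, n = 2 columns a side), and the summed reads gave a ratio of 3.20 with a 95% counting interval of 2.76 to 3.72. In the authors' deposited table its log2 fold change was 1.42 (SE 0.25) with an adjusted p of 3.08e-05, the 5th smallest p and the 2nd largest positive value of the tested genes. Tex15 was picked on this comparison, so its p, rank, interval and ratios here are a description and no support for the change. The log2 ratio of the recovered reads was 1.72 and lay between 1.5 and 1.92 with any 1 column left out.

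Fkbp6 (ENSMUSG00000040013, chromosome 5 from 135291704 to 135350044, minus strand), an immunophilin-family protein of the piRNA pathway that male meiosis needs, showed the opposite pattern. It had 21 and 6 reads in the positive-side columns, against 74 and 126 in the others, or 16.8, 7.90, 70.4 and 122 normalised reads. The sides did not overlap, with means of 12.3 ± 6.27 and 96.1 ± 36.3 normalised reads (SD, n = 2 columns a side). The negative side was 7.14-fold higher by summed reads, with a 95% counting interval of 4.76 to 11.1. In the authors' deposited table its log2 fold change was −1.72 (SE 0.32) with an adjusted p of 0.000128, the 8th smallest p and the 5th largest negative value. The recovered reads gave a log2 ratio of −2.86, over 1.5 times the deposited value. Deposited ES cell fold changes appear shrunken towards 0, and this ratio lay between −3.45 and −2.42 with any 1 column left out. Fkbp6 was also picked on this comparison, and its values here are likewise a description only.

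The second negative-side column stood apart in fibroblast markers. The 10 genes of that list, fixed for the feeder layer, summed to 2004 normalised reads there, against 427 in the other negative-side column and 385 and 434 on the positive side. Of that sum 1553 came from the collagens Col3a1, Col5a2 and Col1a2. For 8 of the 10 genes this column was the highest, but Thy1 was lowest there (14.5 against 25.0 to 30.3 normalised reads) and Acta2, at 34.8, was below 2 of the other columns. None of the 10 passed the adjusted p, 9 had a negative log2 fold change in the authors' deposited table, and all 10 had reads in 3 of the columns and 9 in the second positive-side column. The median log2 fold change of this list was −0.35. Of 12 pluripotency markers 11 were negative with a median of −0.31, also with none passing. The column rich in fibroblast reads held the highest value of 4 of the 8 germline genes: Dazl, Stk31, Fkbp6 and Sycp1. Without it the log2 ratio of Fkbp6 was −2.42, with 1 column left on the negative side. That column had 70.4 normalised reads of Fkbp6 and a fibroblast sum between those of the positive side. Without the column rich in fibroblast reads the log2 ratio was −0.44 for Stk31, 0.48 for Dazl and 0.44 for Sycp1, against −0.71, −0.54 and −0.10 over all columns. Fkbp6 was picked on these ES cell values, and the part of fibroblast content in any of these ratios was not tested. In bulk RNA a change in the number of expressing cells and a change in RNA per cell cannot be told apart.

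Of the RNA-binding and germ granule genes, Ddx4 (chromosome 13) had 32 and 13 reads on the positive side, against 6 and 7. The sides did not overlap, at 21.3 ± 5.96 and 6.23 ± 0.749 normalised reads (SD, n = 2 columns a side), and the read ratio was 3.59 with a 95% counting interval of 1.90 to 7.25. Its deposited log2 fold change was 0.66 (SE 0.32), and the Wald test of the authors' deposited table gave an unadjusted p of 0.0417 and an adjusted p of 0.857. Ddx4 therefore did not pass, at a total of 58 reads and a log2 ratio of the reads of 1.63. Stk31 (chromosome 6) had 71 and 31 reads against 70 and 97, or 56.7 and 40.8 against 66.6 and 93.7 normalised reads, so that both negative-side columns were the higher ones. In the authors' deposited table its log2 fold change was −0.49 (SE 0.31) and its adjusted p 1.00. Dazl (chromosome 17), with 21 and 10 reads against 11 and 35, had overlapping sides. Its deposited log2 fold change was −0.23 (SE 0.33, authors' deposited table), and the log2 ratio of its reads was −0.54 over all columns but 0.48 without the second negative-side column.

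Mael (chromosome 1), a nuage protein of the piRNA pathway, had 12 and 16 reads on the positive side, against 21 and 2. Its log2 fold change of 0.14 (SE 0.30) in the authors' deposited table had no stable sign: the read ratio was 0.45 on the log2 scale over all columns, −0.36 without the column with 2 reads and −0.18 without the second positive-side column. Sycp1 (chromosome 3) had 77 and 32 reads against 40 and 76, and Sycp3 (chromosome 10) had 12 and 13 against 12 and 9. The sides of both synaptonemal complex genes overlapped, and in the authors' deposited table their log2 fold changes were −0.06 (SE 0.32) and 0.14 (SE 0.32). Leaving out 1 column turned the sign of the read ratio for both. It was −0.10 for Sycp1 over all columns, 0.14 without the second positive-side and 0.44 without the second negative-side column. For Sycp3 it was 0.38 over all columns and −0.06 without the second positive-side column. In all, the sides lay apart for 4 of the 8 genes (Tex15, Fkbp6, Ddx4 and Stk31), as they did for 40.8% of the 9867 tested ES cell genes with recovered reads, so that share is no result about the set.

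The genes whose pattern over the 4 columns lay nearest to that of the picked pair were sought among 6876 genes, by Euclidean distance between centred log2 values. For Tex15 these were 3110002H16Rik (distance 0.0461), Car13 (0.219) and Ttc23 (0.308), where the median gene lay at 1.81. The reads of 3110002H16Rik were 326, 262, 105 and 83 in the column order used for Tex15, and its log2 fold change in the authors' deposited table was 1.42 with an adjusted p of 6.08e-05. Car13, a carbonic anhydrase, and Ttc23 had deposited values of 1.05 and 1.05 with adjusted p of 0.167 and 0.136 in the authors' deposited table. For Fkbp6 the nearest were Serpinb6c (distance 0.529), Gm364 (0.535) and Cdh4 (0.578), against a median of 3.06. All 3 passed in the authors' deposited table, with log2 fold changes of −1.49 for Serpinb6c, −1.74 for Gm364 and −1.70 for Cdh4 and adjusted p of 0.00263, 0.000128 and 5.44e-05. These genes share the 4 libraries and were sought by likeness to genes picked on this comparison. Their fold changes and adjusted p were thus largely fixed by the choice, and the likeness is a description.

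In blastocysts none of the 8 genes with an adjusted p passed 0.05 in the authors' deposited table, where 0.0986% of 15209 tested genes passed. The lowest adjusted p was 0.385, for Sycp3. Sycp3 and Mael had an unadjusted p under 0.05, as 6.21% of tested genes had. The signs were 1 positive (Tex15) and 7 negative, with a median log2 fold change of −0.91 beside −0.04 over all tested genes. The excess of negative signs, but not each sign, depended on 1 column, the third of the negative side. The read ratios gave 1 positive and 7 negative values with a median of −0.82 over all columns. Without that column they gave 4 positive and 4 negative values with a median of −0.05, and Sycp3, Mael, Ddx4 and Stk31 stayed negative. Without the second positive-side column 3 values were positive and 5 negative. The standard errors ran from 0.75 to 2.51 on the log2 scale, and 6 of the 8 were at 1.44 or above, so a change of several fold was not detectable in those. Tdrd1, a Tudor protein that binds piRNA-loaded proteins, had 0 reads, which allows up to 3 a column, and Tex101, with reads in 1 column, had no adjusted p. Nonzero read counts were even in 94.1% to 96.2% of cases by column, against 48.7% to 50.2% in ES cells, as when both mates of a pair are counted.

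**Figure D2:**
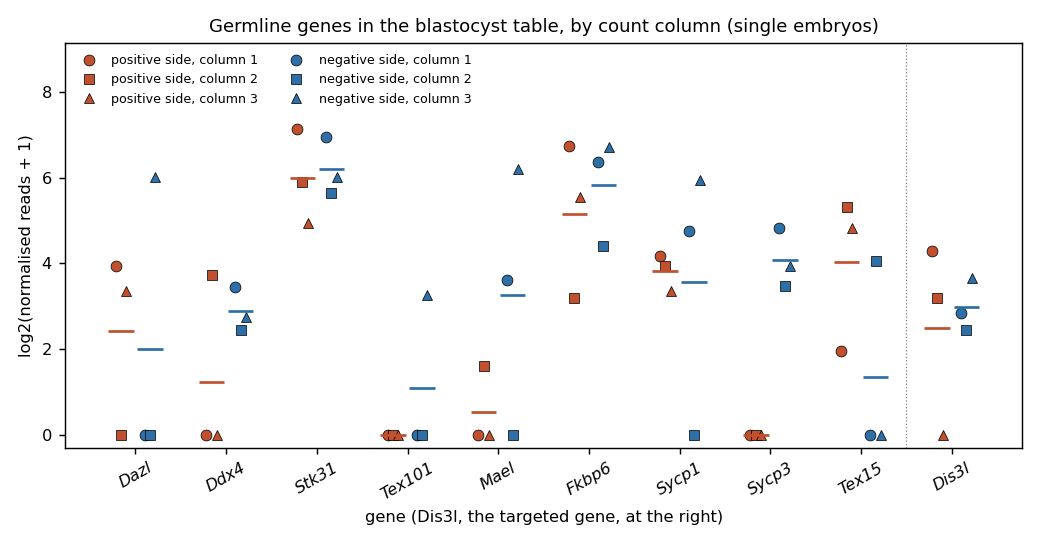
Normalised reads of the 9 germline genes with reads and of Dis3l in the 6 blastocyst count columns, as log2 of reads plus 1 on the vertical axis; each symbol is 1 column and bars are the mean of the log2 values of a side. Sycp3 is at 0 in all 3 positive-side columns and present in all 3 negative-side columns. Most other genes are at 0 in at least 1 column of either side, and Fkbp6 and Stk31 have reads in all 6 columns.

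Sycp3 (ENSMUSG00000020059, chromosome 10 from 88459569 to 88473236, plus strand) had 0 reads in each of the 3 positive-side columns, against 44, 9 and 10 reads in the negative-side ones, which is 27.2, 10.0 and 14.4 normalised reads. It was the only one of the 9 genes with reads whose sides did not overlap. Such sides were seen for 4.32% of 4278 tested genes with a mean up to 10. Of the 9 genes only Sycp3 (mean 8.61), Ddx4 (5.38) and Tex101 (1.44) were in that range. No share was taken for the higher means of the others, so 4.32% is not a background for the set. Against a floor of 3 reads in each positive-side column the negative side was at least 5.99-fold higher, and at least 4.25-fold higher without its highest column. With a floor of 3 read pairs the bound was 3.00. These bounds cover counting on the positive side only and leave out the spread between columns. The fitted log2 fold change of −6.64 (SE 2.26) in the authors' deposited table depends on how a side at 0 is treated, and the adjusted p was 0.385. The median of the 8 genes was −0.91 also with Sycp3 set at its bound. Of the exonic bases of Sycp3, 52.2% (660 bases) also lie in exons of Chpt1 on the opposite strand. The blastocyst libraries are not stated to keep strand, so reads within these shared bases cannot be assigned to Sycp3 or Chpt1 there. The ES cell kit keeps strand, but whether counting used it is not given in the sources used here. In the authors' deposited table Chpt1, a choline phosphotransferase, stood at 0.03 on the log2 scale, from a mean of 193.

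Mael had 0, 2 and 0 reads on the positive side, against 18, 0 and 50 on the negative side. The sides overlapped at 0, and a single column held most of the reads. The summed negative-side reads exceeded the positive-side ones by a ratio of 34.6, with a 95% counting interval of 9.20 to 291. That interval leaves out the spread between columns and treats each read as independent. If both mates of a pair were counted, as the even read counts would have it, the interval is too narrow even for counting error. In the authors' deposited table the log2 fold change was −5.39 (SE 2.16), with an unadjusted p of 0.0127 by the Wald test and an adjusted p of 0.612. The log2 ratio of the reads lay between −4.84 and −1.97 with 1 column left out.

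Tex15 and Fkbp6 had overlapping sides in embryos. Tex15 had 4, 38 and 24 reads on the positive side, against 0, 14 and 0 on the negative side. Its means were 23.0 ± 18.3 and 5.20 ± 9.01 normalised reads (SD, n = 3 columns a side). The log2 fold change in the authors' deposited table was 2.15 (SE 1.89) with an adjusted p of 0.811, and the read ratio ranged from 1.38 to 4.58 on the log2 scale with 1 column left out. Fkbp6 had 148, 8 and 40 reads against 132, 18 and 72, and its means of 53.2 ± 49.2 and 68.4 ± 43.3 normalised reads (SD, n = 3 columns a side) differed by less than the spread of either side. Its deposited log2 fold change was −0.36 (SE 0.94, authors' deposited table) and its adjusted p 0.988. Whether the genotype difference itself differs between ES cells and embryos was not tested, since each table was fitted on its own.

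Stk31 had 196, 58 and 26 reads on the positive side, against 196, 44 and 44 on the negative side. The means were nearly equal, at 76.2 ± 57.1 and 77.9 ± 38.2 normalised reads (SD, n = 3 columns a side), and the authors' deposited table gave a log2 fold change of −0.03 (SE 0.75). Dazl had 20, 0 and 8 reads against 0, 0 and 44, so that the sign of its deposited log2 fold change of −1.42 (SE 2.19, authors' deposited table) rested on 1 column, the third of the negative side. Without it the read ratio was 3.14 on the log2 scale. Ddx4 had 0, 12 and 0 reads against 16, 4 and 4, and Sycp1 had 24, 14 and 8 against 42, 0 and 42. Both had overlapping sides, with log2 fold changes of −0.73 (SE 2.51) and −1.09 (SE 1.44) in the authors' deposited table. Tex101 had 6 reads, all in 1 negative-side column, which is too few for a ratio.

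The column with those 6 reads of Tex101 was the shallowest of the 6 (size factor 0.695). It held reads of 8 of the 9 genes, where the other columns held 5 or 6, and the highest value of 4 genes. Its summed level of the set was 391 normalised reads, against 99.2 and 277 in the other negative-side columns and 121 to 280 on the positive side. Of the marker lists, 8 of 8 markers of 2-cell-like cells and 7 of 9 markers of gonad supporting cells were at 0 in blastocysts. The 2 with reads were Star and Gata4, the latter also a primitive endoderm gene. Of the 10 fibroblast markers 7 were at 0, and the 3 with reads summed to 28.8 normalised reads in that column and to 14.2 to 168 in the others. In ES cells the 3 listed 2-cell-like markers summed to 11.2 to 26.3 normalised reads a column.

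**Figure D3:**
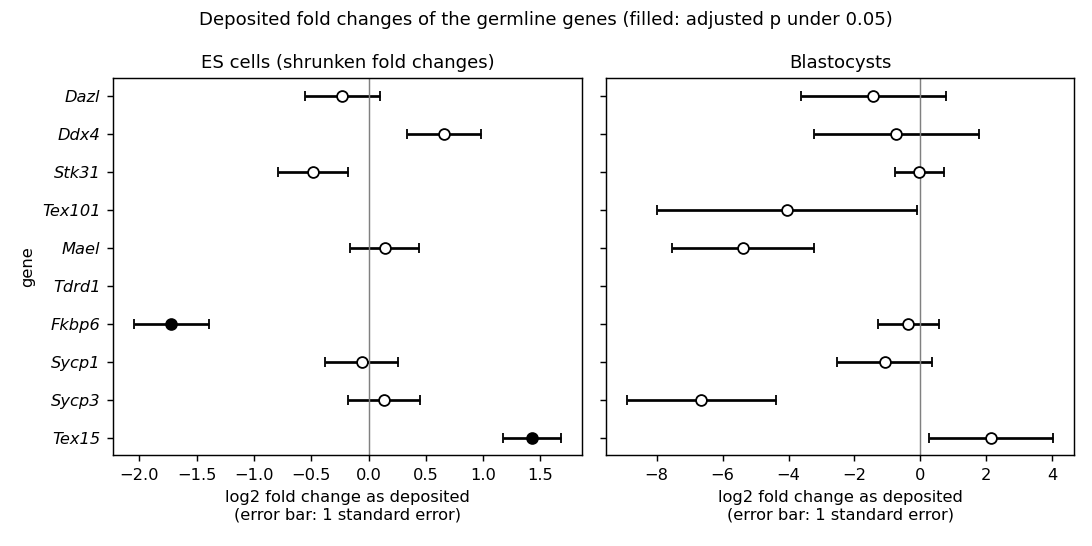
Deposited log2 fold changes of the 10 germline genes with error bars of 1 standard error, for ES cells at the left and blastocysts at the right; filled circles have an adjusted p under 0.05. Tex15 (1.42) and Fkbp6 (−1.72) are filled in ES cells and no gene is filled in blastocysts. The horizontal scales differ, and sizes are not comparable between the panels.

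Levels between genes were compared per length, as normalised reads per kilobase of the longest annotated transcript, averaged over all columns of a table. In ES cells the order was Fkbp6 (37.5), Tex15 (29.4), Stk31 (19.9), Sycp1 (15.6), Sycp3 (10.0), Mael (7.77), Dazl (6.23) and Ddx4 (4.58). The step from Sycp1 to Sycp3 was the only one between neighbours that exceeded the SD over columns of both, and the ranges of all neighbours overlapped. In blastocysts the order was Fkbp6 (42.0), Stk31 (23.8), Mael (8.39), Sycp3 (7.36), Sycp1 (6.15), Dazl (4.86), Ddx4 (1.79), Tex15 (1.67) and Tex101 (1.18) reads per kilobase, and no step exceeded the SD of both neighbours. The ES cell place of Fkbp6 came from the negative side, where it was first at 66.4, while on the positive side it was 6th of 8 at 8.52 and Tex15 was first at 45.1 reads per kilobase. Among the genes of their own table the percentile of this level had a median of 47.4 over the set for ES cells, and of 38.1 for the blastocyst genes with reads. The tables hold unlike sets of genes, so these 2 medians are not on the same scale.

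Ranks among the 11468 genes with reads in both tables set the materials side by side. Tex15 stood at percentile 68.7 in ES cells and 11.1 in blastocysts, the widest gap of the 8 genes listed in both. Its ES cell level averaged unlike sides, with 45.1 reads per kilobase on the positive side and 13.6 on the negative side. Tex15 and Fkbp6 were picked on these ES cell values, so their gaps are a description only. Sycp1 stood at 49.4 and 24.2, Fkbp6 at 75.5 and 63.6, Sycp3 at 36.9 and 26.5, Ddx4 at 19.7 and 11.7, Stk31 at 56.8 and 48.9, Dazl at 25.5 and 21.4, and Mael at 30.3 and 28.4. All 8 ranked lower in blastocysts on this scale, as did 48.2% of all genes compared. Within their own tables, Mael (35.2 and 43.0), Dazl (30.5 and 34.8) and Stk31 (60.2 and 61.5) ranked higher in blastocysts. Those percentiles have unlike bases, with 13009 genes with reads in the ES cell table and 17367 in the blastocyst table. The materials also differ in library chemistry (ribosomal depletion with a stranded kit against tagmented cDNA of single embryos), and the parts of tissue and chemistry in these gaps cannot be told apart.

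**Figure D4:**
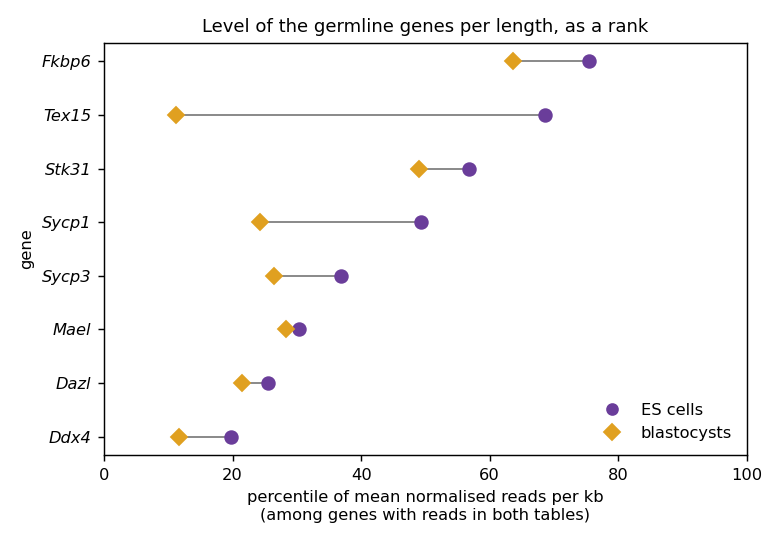
Percentile of the mean normalised reads per kilobase of each of the 8 germline genes listed in both tables, among the 11468 genes with reads in both; purple circles are ES cells and yellow diamonds are blastocysts. Tex15, which was picked on its ES cell values, stands at 68.7 and 11.1, while Mael, at 30.3 and 28.4, holds nearly the same rank.

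The wider germline programme was taken from 3 lists of 79 genes in all that leave out the 10. None of the 33 tested in ES cells passed an adjusted p of 0.05, and none of the 43 tested in blastocysts, while 8 (24.2%) and 5 (11.6%) had an unadjusted p under 0.05 by the authors' Wald test, beside 5.62% and 6.21% of all tested genes. In ES cells 17 of 35 meiosis genes were tested, with a median log2 fold change of 0.04, and 5 had an unadjusted p under 0.05, of which 4 had a negative and 1 a positive log2 fold change. The 3 with the smallest p all had a negative value in the authors' deposited table: the meiotic cohesin subunits Stag3 (log2 fold change −1.04, SE 0.30, adjusted p 0.0881) and Smc1b (−0.99, adjusted p 0.233), and Hormad2 (−0.96, adjusted p 0.311), a chromosome axis protein. Stag3 had 88 and 31 reads against 120 and 202, and Smc1b had 17 and 22 against 51 and 92. Both had their highest value in the column with many fibroblast reads.

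Of the 22 piRNA and nuage genes 9 were tested in ES cells, with a median log2 fold change of −0.02. Rnf17, a Tudor protein, came nearest to the threshold in the authors' deposited table at −0.88 (SE 0.24, adjusted p 0.0653), with 244 and 115 reads against 369 and 376. Tdrd5 stood at 0.83 (adjusted p 0.465) and Tex19.1 at −0.40 (adjusted p 1.00) in the authors' deposited table. The 22 germ cell specification and RNA-binding genes, of which 7 were tested, had a median of −0.04. Tfap2c, a transcription factor of primordial germ cells, stood at 0.91 (adjusted p 0.387), Prdm14 at −0.38 and Sohlh2 at −0.37 in the authors' deposited table.

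In blastocysts 19 meiosis genes, 15 piRNA genes and 9 specification genes were tested, with median log2 fold changes of −0.61, −0.52 and −1.20. Among markers of the embryo's own cells, 12 pluripotency markers had a median of −0.22 (8 negative, 3 of them at an unadjusted p under 0.05, lowest adjusted p 0.205), and 10 trophectoderm markers had a median of 0.46 (6 positive, with 2 in each direction at an unadjusted p under 0.05). Of all tested blastocyst genes 6.21% had an unadjusted p under 0.05 by the authors' Wald test. The part of cell makeup in the values of the germline lists was not tested. With genes that had a side at 0 reads set at the bound of a 3-read floor, the medians were −0.42, −0.52 and −1.0. With a mean of at least 10 the piRNA median was −1.86, from 9 genes. Tdrd7, a Tudor protein of germ granules, had 0 reads in each positive-side column and 14, 34 and 14 in the negative-side columns, the same layout as Sycp3, and an adjusted p of 0.242 in the authors' deposited table. Rnf17 stood at −1.86 (SE 0.70, adjusted p 0.546) and Gtsf1, a piRNA pathway zinc finger protein, at −4.83 (adjusted p 0.769) in the authors' deposited table. Among the meiosis genes Mei4 had 26, 16 and 0 reads against 0, 0 and 0 (adjusted p 0.772 in the authors' deposited table). Smc1b stood at −2.60 and Trip13 at −0.61 (authors' deposited table). Sohlh2 stood at −4.27 (adjusted p 0.738) and Dppa3, a maternal protein also of primordial germ cells, at −2.98 (authors' deposited table). Slc25a31 had 12 reads, all in the third negative-side column.

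**Figure D5:**
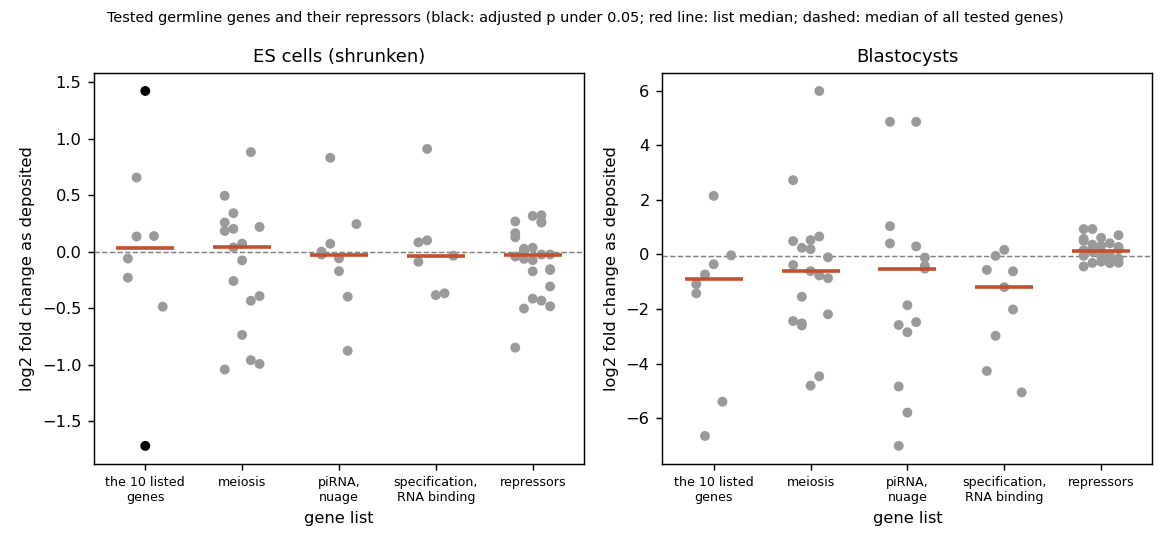
Deposited log2 fold changes of tested genes in the set of 10 and in 4 lists, with ES cells at the left and blastocysts at the right; black points have an adjusted p under 0.05, red lines are list medians and the dashed line is the median of all tested genes. Tex15 and Fkbp6 are the only black points, and the repressors run from −0.44 to 0.93 in blastocysts, with a median of 0.13.

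The repressors of germline genes went both ways in both materials, from −0.85 to 0.32 in ES cells and from −0.44 to 0.93 in blastocysts. Of 26 genes 25 were tested in ES cells and 26 in blastocysts, none passed, and the median log2 fold changes were −0.02 and 0.13. An unadjusted p under 0.05 by the authors' Wald test was seen for 3 of the 25 in ES cells, all negative. In blastocysts it was seen for 1 of the 26, which was positive. The shares over all tested genes were 5.62% and 6.21%. Kdm5c, an X-linked histone demethylase that represses germline genes, came nearest in ES cells, at −0.85 (SE 0.23, adjusted p 0.0653) in the authors' deposited table. L3mbtl2, a subunit of the variant Polycomb complex, stood at −0.50 (adjusted p 0.70) and Dnmt3l, a cofactor of DNA methylation, at −0.48 (adjusted p 0.731) in the authors' deposited table. In blastocysts Rnf2, the ubiquitin ligase of Polycomb complexes, stood at 0.93 (SE 0.39, adjusted p 0.648), E2f6 at 0.93 and Rybp at 0.61 (authors' deposited table). CACGTG stood in the promoter windows of 5 of 29 meiosis genes, 4 of 17 piRNA genes, 4 of 14 specification genes and 3 of 23 repressors, each with an entry in the promoter table. TCCCGC stood in 17, 5, 3 and 11 of these windows, in the same order of lists. The median observed over expected CpG ratios of the lists were 0.686, 0.674, 0.535 and 0.815.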

How the data were processed

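RNA sequencing of Dis3L KO and Dis3L WT blastocysts and ES cells was used. The submitters' processing notes name STAR 2.4.0b, bedtools, SAMtools, featureCounts, Subread 2.0.1, DESeq2 1.34.0 and the build GRCm38, with no roles. The authors deposited 1 table of comparison results per material, of the kind that DESeq2 writes. The signal column is the authors' mean of normalised read counts, the log2 columns hold the deposited log2 fold change and its standard error, the score is the deposited Wald statistic, and the p-value columns hold the deposited p and adjusted p, per the file headers. Per-sample counts were assumed possible in the design, with the authors' statistics as the fallback, which was used; 0 columns of per-sample values were left aside.

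The score equalled the log2 fold change over its standard error, and Benjamini-Hochberg adjustment gave back the deposited adjusted p. ES cell standard errors did not exceed 0.33 and had a median of 0.23 at means of 2 to 5 against 0.33 at 20 to 50, so those fold changes appear shrunken. Whole reads per count column were solved from each mean, for means up to 350 (ES cells) and 80 (blastocysts; all genes up to 10). They were tested on simulated data. Each of the 12137 ES cell genes had 1 solution, as had 6424 of 6425 blastocyst genes; for Stk31 the 1 solution with even counts was taken. Ratios used a pseudocount of 1, and read ratios carry exact binomial (Clopper-Pearson) intervals of counting error only. These intervals treat each read as independent, also in blastocysts, where both mates of a pair may have been counted. No p-value was computed over columns. Lengths came from GENCODE transcripts, for 99.9% and 98.8% of genes.

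The 10 genes, the lists and the markers were chosen with earlier results of these data known. Named beside them are Dis3l, any passing gene of each list or else the 3 with the smallest p, and the 3 genes nearest in pattern to Tex15 and Fkbp6 with a mean of at least 30; Chpt1, Star and Gata4 were named after their values were seen. Python 3.11.15, numpy 2.4.6, pandas 2.3.3, scipy 1.17.1 and matplotlib 3.10.9 were used.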

Additional observations from a re-analysis of the deposited data

How the results depend on the processing

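The number of germline genes past the threshold was 2 in ES cells and 0 in blastocysts under each of 4 other settings: an adjusted p under 0.01, adjustment over every gene with a p-value, and adjustment over genes with a mean of at least 10 or of at least 50. The 2 are Tex15 and Fkbp6, which were picked on that table, so this count was largely fixed by the choice, and the count of the other 6 was 0. The minimum means left fewer of the 10 genes tested, except that all 8 stayed in ES cells at a mean of 10. Of the log2 fold changes of single genes, 44 of 120 alternative values moved by more than the deposited standard error. All 120 were ratios of recovered reads in place of the deposited value. In ES cells the deposited values appear shrunken, so this count partly measures shrinkage. Ddx4 and Fkbp6 moved there in every setting, also with all columns kept. With 1 count column left out at a time, 4 of 8 genes in ES cells (Tex15, Fkbp6, Ddx4, Stk31) and 4 of 9 in blastocysts (Tex15, Sycp3, Mael, Ddx4) kept the sign of their ratio. The blastocyst ratio of Fkbp6 ranged from −1.31 to 0.14, that of Stk31 from −0.80 to 0.43, that of Sycp1 from −1.61 to 0.05 and that of Ddx4 from −2.95 to −0.12. No paired analysis was possible because the tables hold no values per sample and the recovered count columns carry no replicate numbers. As an alternative chosen after seeing the data, the median over the set was taken with each column left out. It lay between −0.12 and 0.32 for the 6 ES cell genes not picked and between −1.27 and −0.05 for the 8 blastocyst genes. In blastocysts 6 of the 9 genes with reads had a mean under 20 normalised reads. Fkbp6 and Stk31, with means of 60.8 and 77.0, also turned sign. Their deposited log2 fold changes of −0.36 (SE 0.94) and −0.03 (SE 0.75) were small beside their standard errors. The part of depth in these values was not tested.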
